A study of Canis lupus familiaris with 15 samples.

Results

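The genes described here are 39 named genes of bone formation and osteoblast differentiation, taken wherever the symbol in the deposited tables equals one of the names. Of these 39 names, 28 are listed in at least 1 of 3 tables, which together list 7698 gene identifiers. The 11 names found in no table are BAMBI, DMP1, FGF23, IFITM5, IHH, MEPE, PTHLH, RUNX1, RUNX2, SOX5 and TNAP, and TNAP is an older name of the product of ALPL, which is listed. The tables hold only genes that the authors called different, so a missing gene may have been similar in both groups, too low to test or untested, and its level is not known here.

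RNA was sequenced from 15 libraries of canine osteosarcoma cell lines in 5 groups of 3 libraries. The groups are D17 extravasation-positive sub-lines, parental D17, HMPOS extravasation-positive sub-lines, parental HMPOS and parental POS cells. The sub-lines were grown in culture from tumor cell clusters that had left the vessels of Tg(fli1a:EGFP) zebrafish embryos, whereas the parental cells had not been in a fish. HMPOS is a highly metastasizing line derived from POS, and all 3 lines are osteosarcoma cells, tumor cells of the bone-forming lineage. The tables give 1 FPKM value per group (fragments per kilobase of transcript, normalised to the mapped fragments of a library), which the authors pooled over its 3 libraries. Neither depth nor variation among libraries can therefore be seen, no test was made here, and every ratio below is a ratio of 2 pooled values. In bulk RNA, fewer cells of a type and less RNA per cell cannot be told apart.

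Osteoblasts arise from mesenchymal cells under RUNX2 and SP7, with DLX and MSX homeobox proteins acting around them, while SOX9 with SOX5 and SOX6 drives the cartilage fate. As they mature, osteoblasts make alkaline phosphatase (ALPL), then bone sialoprotein (IBSP), osteopontin (SPP1) and osteocalcin (BGLAP), and cells that become buried as osteocytes express PHEX and DMP1. Mineral forms when phosphatases such as ALPL and PHOSPHO1 outweigh pyrophosphate, which ENPP1 makes and ANKH helps to export. Osteoblast-lineage cells also steer bone resorption, through the osteoclast-inducing ligand RANKL (TNFSF11), its receptor RANK (TNFRSF11A) and the decoy receptor osteoprotegerin (TNFRSF11B).

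Directions rest on the group names in the tables. The name "norm" was read as parental, because POS, which has parental libraries alone, carries it. Parental HMPOS stands in 2 tables, and for the 5 bone genes listed in both, its values there differed by at most 0.126%. The names are not defined in the sources used here, so every direction given for extravasated cells holds under this reading alone. Whether the names were exchanged before the tables were made cannot be told from these values. An exchange would turn each extravasated direction, and the HMPOS values set against POS, which are the same "norm" values, would then be those of extravasated cells. Positions are those of the tables on CanFam3.1, the genome build named in the submitters' processing notes, and whether the first position counts from 0 is not stated.

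In D17, 8 of the 39 names were listed, 7 of them higher and 1 lower in extravasated than in parental cells. Of all 4412 genes listed for D17, 54.2% were higher and 45.8% lower. Above 2-fold, 3 members were higher and 0 lower, where 18.3% of all listed genes were higher and 8.5% lower at that size. The median log2 ratio (extravasated over parental) was 0.72 for the 8 members and 0.39 for all listed genes of the table. The members above 2-fold were SPP1, PHEX and CADM1.

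Osteopontin (SPP1), an acidic phosphoprotein of bone matrix that also binds integrins, was at 25.2 FPKM in extravasated D17 cells against 3.71 FPKM in parental D17. This was a 6.79-fold difference, a log2 ratio of 2.76. SPP1 is listed on chromosome 32 from 11354095 to 11362391. PHEX, a membrane endopeptidase of osteoblasts and osteocytes whose loss causes phosphate wasting, was at 0.494 FPKM in extravasated D17 cells against 0.160 FPKM in parental D17. Its ratio was 3.08-fold, but both values lie below 1 FPKM, and with a pseudocount of 1 FPKM its log2 ratio of 1.62 became 0.36. PHEX is listed on chromosome X from 17830687 to 18035505. CADM1, an adhesion molecule of the immunoglobulin family, was at 17.05 FPKM in extravasated D17 cells against 8.44 FPKM in parental D17, a ratio of 2.02-fold just past the threshold.

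The other D17 members differed by less than 2-fold. The regulator DLX5, a homeobox factor that acts upstream of SP7, was at 22.3 FPKM in extravasated cells against 16.3 FPKM in parental cells. SOX9, the main regulator of cartilage differentiation, was at 2.16 and 1.24 FPKM. ANKH, a membrane protein that supplies pyrophosphate outside the cell, was at 3.83 and 2.51 FPKM. OSTM1, a lysosomal partner of the chloride transporter CLCN7 that osteoclasts need to resorb bone, was at 70.5 and 45.0 FPKM. CBFB, the partner subunit with which RUNX proteins bind DNA, was the 1 listed member on the other side, at 22.3 FPKM in extravasated D17 cells against 33.4 FPKM in parental D17, a log2 ratio of -0.58. No osteoclast coupling gene among the 3 members of that role was listed for D17.

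In HMPOS, 7 of the 39 names were listed, 5 higher and 2 lower in extravasated than in parental cells. Of all 1189 genes listed for HMPOS, 67% were higher and 33% lower. Above 2-fold, 2 members were higher and 1 lower, against 20.5% and 4.79% of all listed genes. The median log2 ratio was 0.78 for the 7 members and 0.58 for all listed genes of the table. None of the 11 osteoblast regulators or of the 6 chondrocyte regulators was listed for this comparison, so the 7 members are matrix, mineralisation, phosphate and osteoclast coupling genes.

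**Figure D1:**
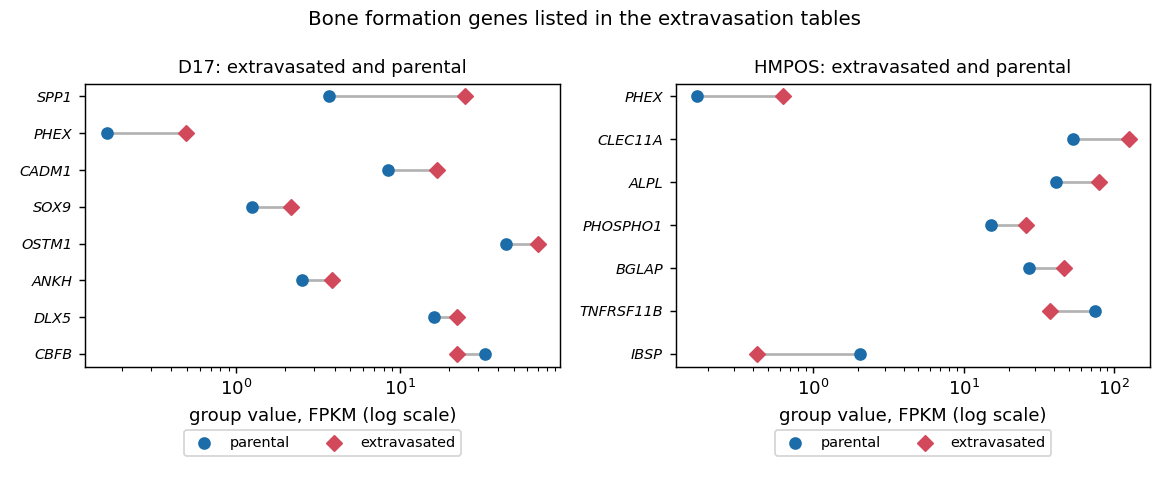
Group values in FPKM (log scale) of the members listed for D17 (left) and HMPOS (right), with diamonds for extravasated and circles for parental cells and no error, since each point is 1 pooled value. SPP1 has the widest gap in D17, at 25.2 and 3.71 FPKM, and IBSP in HMPOS, where the extravasated value of 0.427 FPKM lies left of the parental 2.05 FPKM.

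The markers of a mineralising osteoblast did not move together in HMPOS. IBSP, an acidic glycoprotein that nucleates mineral, was at 0.427 FPKM in extravasated cells against 2.05 FPKM in parental cells, a ratio of 4.79-fold. With a pseudocount of 1 FPKM, the IBSP log2 ratio of -2.26 became -1.09. IBSP lies on chromosome 32 from 11189931 to 11200350, 154 kb from SPP1, which is not listed for this comparison. By contrast ALPL, the phosphatase that breaks down pyrophosphate, was at 79.2 FPKM in extravasated cells against 40.9 FPKM in parental cells, just under 2-fold at 1.94-fold. PHOSPHO1, which frees phosphate inside matrix vesicles, was at 26.1 and 15.2 FPKM. Osteocalcin (BGLAP), the small vitamin K-dependent protein of mature osteoblasts, was at 46.3 and 27.3 FPKM, a ratio of 1.70-fold. Thus both listed mineralisation phosphatases and BGLAP were higher in extravasated HMPOS cells, while IBSP was lower and low in both groups. The log2 ratios of ALPL (0.95), PHOSPHO1 (0.78) and BGLAP (0.76) stood beside a median of 0.58 for all listed genes, of which 67% were higher. PHOSPHO1 and BGLAP were thus close to that median.

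PHEX was at 0.628 FPKM in extravasated HMPOS cells against 0.171 FPKM in parental HMPOS, a log2 ratio of 1.88. It was the only member listed for both D17 and HMPOS extravasation, and it was higher in extravasated cells of both lines, at values below 1 FPKM in all 4 groups. How many of all listed genes D17 and HMPOS share was not counted, so this overlap of 1 member cannot be weighed. CLEC11A, a secreted factor that promotes osteogenesis, was at 125.4 FPKM in extravasated HMPOS cells against 53.4 FPKM in parental HMPOS, a ratio of 2.35-fold. Its listed locus, on chromosome 1 from 106005193 to 106319297, is 108.4 times as long as the gene in RefSeq's UU_Cfam_GSD_1.0 annotation, and how reads were assigned within that locus is not known here. Osteoprotegerin (TNFRSF11B), the secreted decoy that keeps RANKL from its receptor, was at 37.3 FPKM in extravasated cells against 74.6 FPKM in parental cells. Its ratio, lower in extravasated cells, fell just short of 2-fold at 1.999-fold.

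Parental HMPOS and parental POS cells were compared in the third table, which lists 26 of the 39 names, 10 higher and 16 lower in HMPOS than in POS. Of all 5746 genes listed there, 47.7% were higher and 52.3% lower in HMPOS. Above 2-fold, 4 members were higher and 6 lower in HMPOS, where 8.49% of all listed genes were higher and 19.1% lower at that size. The median log2 ratio (HMPOS over POS) was -0.62 for the 26 members and -0.31 for all listed genes of the table. A total of 14 members are listed for this comparison alone, among them SP7, OMD and TNFSF11. Its table is the longest, with 5746 genes against 4412 for D17 and 1189 for HMPOS extravasation. How many of all listed genes stand in this table alone was not counted, so the 14 cannot be weighed.

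Among the 11 osteoblast regulators 9 were listed, 4 higher and 5 lower in HMPOS, and RUNX3 alone differed by more than 2-fold. Osterix (SP7), the zinc finger factor required for osteoblast formation, was at 54.5 FPKM in HMPOS against 41.7 FPKM in POS. MSX2, a homeobox factor of early osteoblasts, was at 80.8 and 64.9 FPKM. MEF2C, which acts in osteocytes and in enlarging chondrocytes, was at 66.2 FPKM in HMPOS against 42.2 FPKM in POS. SP7 and MSX2 thus differed between the parental lines by less than 1.5-fold.

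DLX5 and DLX6, a pair of homeobox genes 10.5 kb apart on chromosome 14, were both lower in HMPOS. DLX5 was at 61.8 FPKM in HMPOS against 95.2 FPKM in POS. DLX6 was at 18.7 and 35.0 FPKM. DLX3, a related homeobox gene on chromosome 9, lay on the other side at 11.3 FPKM in HMPOS against 5.95 FPKM in POS. Its listed locus is shared with PDK2, a kinase gene that was at 15.0 FPKM in HMPOS against 32.8 FPKM in POS, so the neighbours had opposite directions. MSX1 was at 3.95 FPKM in HMPOS against 6.10 FPKM in POS. RUNX3, a RUNX family factor of chondrocytes and lymphocytes, was at 4.09 and 9.87 FPKM, a ratio of 2.41-fold. CBFB was at 74.2 and 91.4 FPKM, a log2 ratio of -0.30 beside a median of -0.31 for all listed genes.

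Of the 6 chondrocyte regulators 3 were listed. SOX6, which works with SOX9 on cartilage genes, was at 1.77 FPKM in HMPOS against 0.674 FPKM in POS, a ratio of 2.63-fold. SOX9 itself lay the other way, at 11.9 FPKM in HMPOS against 18.7 FPKM in POS. PTH1R, the receptor for parathyroid hormone and PTHrP, was at 18.5 and 12.0 FPKM.

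**Figure D2:**
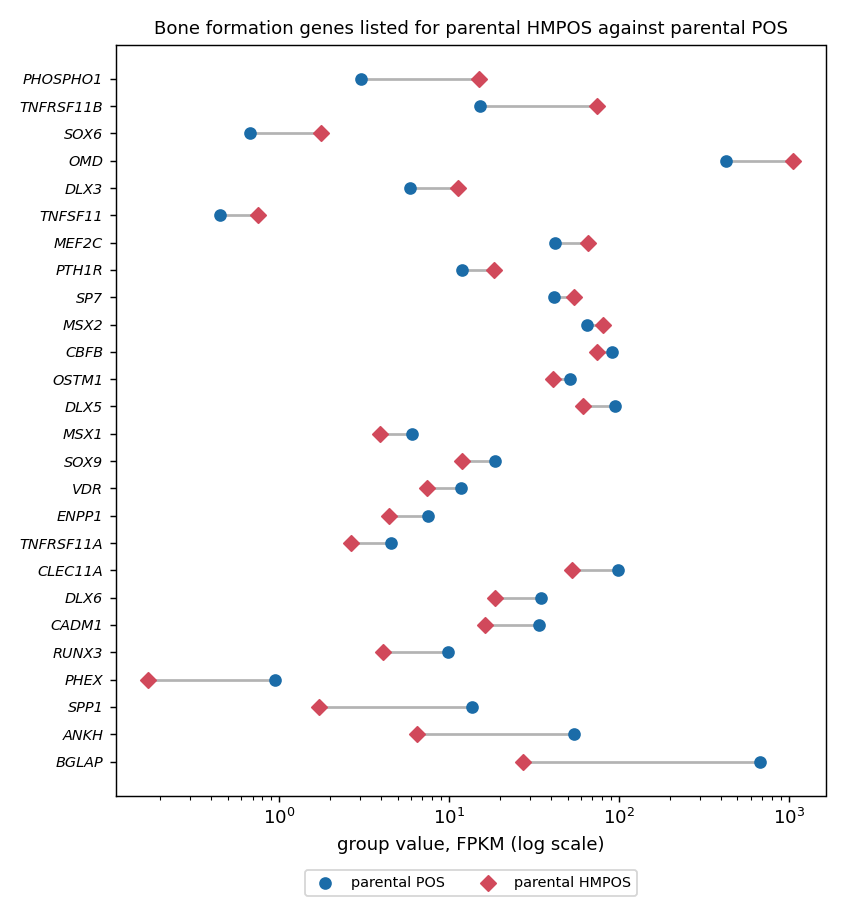
Group values in FPKM (log scale) of the 26 members listed for parental HMPOS (diamonds) against parental POS cells (circles), ordered by their ratio, each point 1 pooled value with no error. BGLAP at the bottom spans 27.3 to 676.3 FPKM, and PHOSPHO1 and TNFRSF11B at the top have the highest ratios of HMPOS over POS.

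Among all 26 members, the matrix gene BGLAP had the widest difference between the parental lines. It was at 27.3 FPKM in HMPOS against 676.3 FPKM in POS, a ratio of 24.8-fold and the 70th lowest of the 5746. In POS it was the 67th highest of all listed genes by level, and in HMPOS the 2044th. BGLAP is listed on chromosome 7 from 41630233 to 41630904. SPP1 was at 1.73 FPKM in HMPOS against 13.8 FPKM in POS, a ratio of 7.95-fold. The late matrix genes BGLAP and SPP1 were thus both many times lower in HMPOS than in its parent line.

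Osteomodulin (OMD), a small leucine-rich keratan sulfate proteoglycan of mineralised matrix, went against these at 1066 FPKM in HMPOS against 431.1 FPKM in POS. It was the 33rd highest level of all listed genes in HMPOS. Its listed locus on chromosome 1, from 98800118 to 99019334, also holds OGN, a proteoglycan of the same family, which was at 238.3 FPKM in HMPOS against 919.5 FPKM in POS. The pair thus had opposite directions within 1 listed locus, and how reads were divided between them is not known here. CADM1 was at 16.3 and 33.98 FPKM, CLEC11A at 53.4 and 98.9 FPKM and OSTM1 at 41.2 and 51.6 FPKM in HMPOS and POS. CADM1, at 2.09-fold, was the member closest above the 2-fold threshold, and CLEC11A stood at 1.85-fold.

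The genes of phosphate and pyrophosphate handling diverged. PHOSPHO1 was at 15.1 FPKM in HMPOS against 3.04 FPKM in POS, a ratio of 4.99-fold. ANKH was at 6.49 FPKM in HMPOS against 54.9 FPKM in POS, a ratio of 8.46-fold the other way. ENPP1, the ectoenzyme that makes pyrophosphate from nucleotides, was at 4.45 and 7.55 FPKM. The phosphatase PHOSPHO1 was thus higher, and the pyrophosphate genes ANKH and ENPP1 lower, in HMPOS. As a ratio of FPKM levels within a line, PHOSPHO1 over ANKH was 2.33 in HMPOS and 0.0553 in POS. PHOSPHO1 over ENPP1 was 3.40 in HMPOS and 0.402 in POS, a smaller contrast. ALPL, the phosphatase that breaks down pyrophosphate, is not listed for this comparison, so its level in POS is not known here. ABI3, listed at the same locus as PHOSPHO1, was at 2.26 FPKM in HMPOS against 0.657 FPKM in POS, on the same side as PHOSPHO1. How reads were divided between PHOSPHO1 and ABI3 is not known here, which also limits the ratios with PHOSPHO1 above. PHEX was at 0.170 FPKM in HMPOS against 0.950 FPKM in POS, a ratio of 5.58-fold at low levels. VDR, the vitamin D receptor, was at 7.49 FPKM in HMPOS against 11.8 FPKM in POS.

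All 3 osteoclast coupling genes were listed for the parental lines. TNFRSF11B was at 74.5 FPKM in HMPOS against 15.4 FPKM in POS, a ratio of 4.85-fold and the 120th highest of the table. TNFSF11, the RANKL gene, was at 0.749 FPKM in HMPOS against 0.450 FPKM in POS, both below 1 FPKM. TNFRSF11A, the RANK gene, was at 2.65 and 4.58 FPKM. The osteoprotegerin level was thus 99.4 times that of RANKL in HMPOS and 34.1 times in POS, on the FPKM scale.

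**Figure D3:**
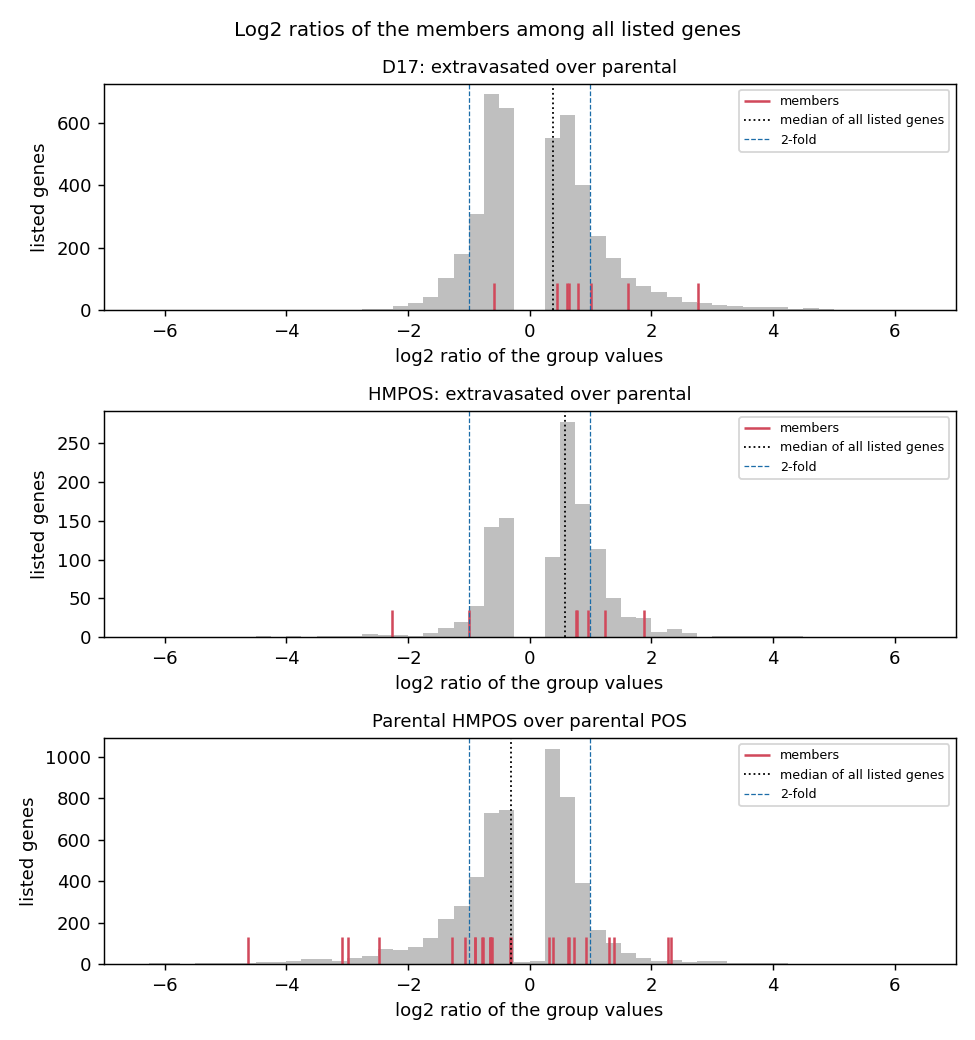
Histograms of the log2 ratio of group values over all genes listed in each table (bins of 0.25 log2; values beyond the axis are not drawn), with red ticks for the members, dashed lines at 2-fold and a dotted line at the median. The HMPOS against POS members run from -4.63 for BGLAP to 2.32 for PHOSPHO1, and few ratios lie near 0, since only genes called different are listed.

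A total of 5 members are listed in both HMPOS tables, so that 3 related groups can be set side by side. How many of all listed genes stand in both was not counted, so the overlap of 5 cannot be weighed. The comparisons share the parental HMPOS libraries and are not independent, and the extravasated and POS values were scaled in separate tables. BGLAP was at 676.3 FPKM in POS, 27.3 in parental HMPOS and 46.3 in extravasated HMPOS cells, so the sub-line stayed far below POS. PHEX was at 0.950, 0.170 and 0.628 FPKM in the same order. CLEC11A was at 98.9, 53.4 and 125.4 FPKM, the highest value being that of the extravasated cells. TNFRSF11B was at 15.4, 74.5 and 37.3 FPKM, and the extravasated value lay between those of the parental lines. PHOSPHO1 was at 3.04, 15.1 and 26.1 FPKM, the one of these genes with its middle value in parental HMPOS.

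**Figure D4:**
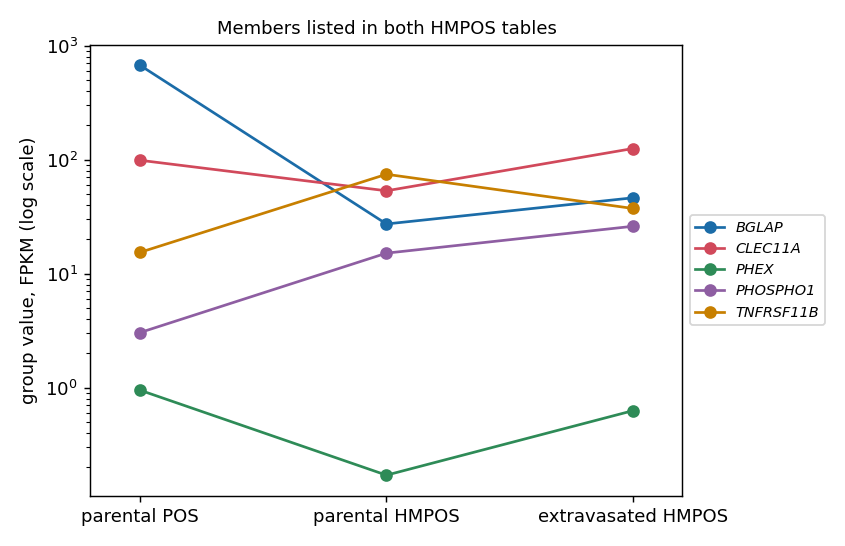
Group values in FPKM (log scale) of the 5 members listed in both HMPOS tables, for parental POS, parental HMPOS and extravasated HMPOS cells, each point 1 pooled value with no error and lines joining the values of a gene. Parental HMPOS has the lowest value for BGLAP, PHEX and CLEC11A, the highest for TNFRSF11B and the middle one for PHOSPHO1.

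D17 and the parental HMPOS and POS lines have 8 members in common between their tables. These are all 8 members listed for D17, and the HMPOS against POS table lists 5746 genes. How many of all listed genes these tables share was not counted, so this overlap cannot be weighed. SPP1 was at 25.2 FPKM in extravasated cells against 3.71 FPKM in parental D17, beside 1.73 FPKM in parental HMPOS against 13.8 FPKM in POS. DLX5 was at 22.3 and 16.3 FPKM in D17 and at 61.8 and 95.2 FPKM in HMPOS and POS. SOX9 was at 2.16 and 1.24 FPKM in D17 and at 11.9 and 18.7 FPKM in HMPOS and POS. The DLX5 and SOX9 values of both D17 groups lay below those of HMPOS and POS, across tables that were scaled separately.

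Other genes of bone formation were taken from lists chosen with earlier results of these data known, and are described by their counts. The list of other bone matrix genes has 40 names, and the counts in this paragraph are of that list alone. In D17, 19 of the 40 were in the table, 18 higher and 1 lower in extravasated cells. Above 2-fold, 9 were higher and 1 lower, and the median log2 ratio was 0.82. Over all genes listed for D17, 54.2% were higher, 18.3% above 2-fold higher and 8.5% above 2-fold lower. SERPINF1, whose product is a secreted regulator of mineralisation, was at 80.1 FPKM in extravasated D17 cells against 9.19 FPKM in parental D17. FMOD was at 2.27 and 0.507 FPKM and TNC at 1.01 and 0.249 FPKM. In HMPOS, 12 of the 40 were in the table, all 12 higher in extravasated cells, 3 of them above 2-fold, with a median log2 ratio of 0.66. Over all genes listed for HMPOS, 67% were higher and 20.5% above 2-fold higher, so the share of the 12 above 2-fold is near that of all listed genes. SERPINF1 was at 207.1 FPKM in extravasated HMPOS cells against 92.4 FPKM in parental HMPOS, TNC at 1.15 and 0.294 FPKM and DCN at 11.7 and 4.69 FPKM. COL1A1, the main collagen gene of bone, was named outside the rule for named genes. It was at 397.4 FPKM in extravasated D17 cells against 224.4 FPKM in parental D17, and at 101.9 and 76.0 FPKM in HMPOS. For HMPOS against POS, 22 of the 40 were in the table, 8 higher and 14 lower in HMPOS, with 3 and 7 above 2-fold, where 52.3% of all listed genes were lower and 19.1% above 2-fold lower. COL1A1 was at 75.9 FPKM in HMPOS against 213.2 FPKM in POS, while THBS2 was at 76.2 FPKM in HMPOS against 0.0523 FPKM in POS.

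Other mineralisation genes (30 in the list) were in the D17 table for 8 genes, 5 higher and 3 lower in extravasated cells. They were in the HMPOS table for 4 genes, 3 higher and 1 lower. Over all listed genes, 54.2% were higher in D17 and 67% in HMPOS, so these counts are near those shares. FAM20A, which assists the kinase that phosphorylates secreted matrix proteins, was at 25.9 FPKM in extravasated D17 cells against 2.201 FPKM in parental D17, and at 24.5 and 7.59 FPKM in HMPOS. ANXA5 was at 80.5 and 27.4 FPKM in D17 and at 89.2 and 55.4 FPKM in HMPOS. GALNT3, an enzyme that protects FGF23 from cleavage, was at 9.24 FPKM in extravasated HMPOS cells against 18.2 FPKM in parental HMPOS. For HMPOS against POS, 13 were in the table, 5 higher and 8 lower in HMPOS, where 47.7% of all listed genes were higher and 52.3% lower. SMPD3, a sphingomyelinase needed for bone mineral, was at 10.02 FPKM in HMPOS against 0.0795 FPKM in POS, and PANX3, a channel of osteoblasts and chondrocytes, at 9.04 and 0.186 FPKM. Above 2-fold, 3 of the 13 were higher and 3 lower in HMPOS, where 8.49% of all listed genes were higher and 19.1% lower. FAM20A was among the lower ones at 7.58 FPKM in HMPOS against 37.3 FPKM in POS.

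Of 15 other osteocyte genes, the D17 table held 7, 5 higher and 2 lower in extravasated cells, that for HMPOS held 3, all 3 higher, and that for HMPOS against POS held 7, 1 higher and 6 lower in HMPOS. The shares of all listed genes that were higher are 54.2% for D17, 67% for HMPOS and 47.7% for HMPOS against POS. PDPN, a membrane glycoprotein of young osteocytes, was at 2.99 FPKM in extravasated D17 cells against 0.172 FPKM in parental D17 and at 7.06 and 3.85 FPKM in HMPOS. GJA1, the gap junction protein connexin 43, was at 89.3 and 50.4 FPKM in D17, at 194.9 and 108.7 FPKM in HMPOS, and at 108.5 FPKM in parental HMPOS against 846.4 FPKM in POS. Of 43 other osteoblast transcription regulators, the D17 table held 15, 9 higher and 6 lower, that for HMPOS held 6, 5 higher and 1 lower, and that for HMPOS against POS held 22, 8 higher and 14 lower, counts of a list chosen with earlier results known and read beside the same shares. FOSL1, an AP-1 subunit, was at 7.82 FPKM in extravasated D17 cells against 25.4 FPKM in parental D17 and at 4.92 and 2.33 FPKM in HMPOS, opposite directions whose difference was not tested. ID4, an inhibitor of helix-loop-helix factors, was at 0.875 FPKM in HMPOS against 11.7 FPKM in POS.

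**Figure D5:**
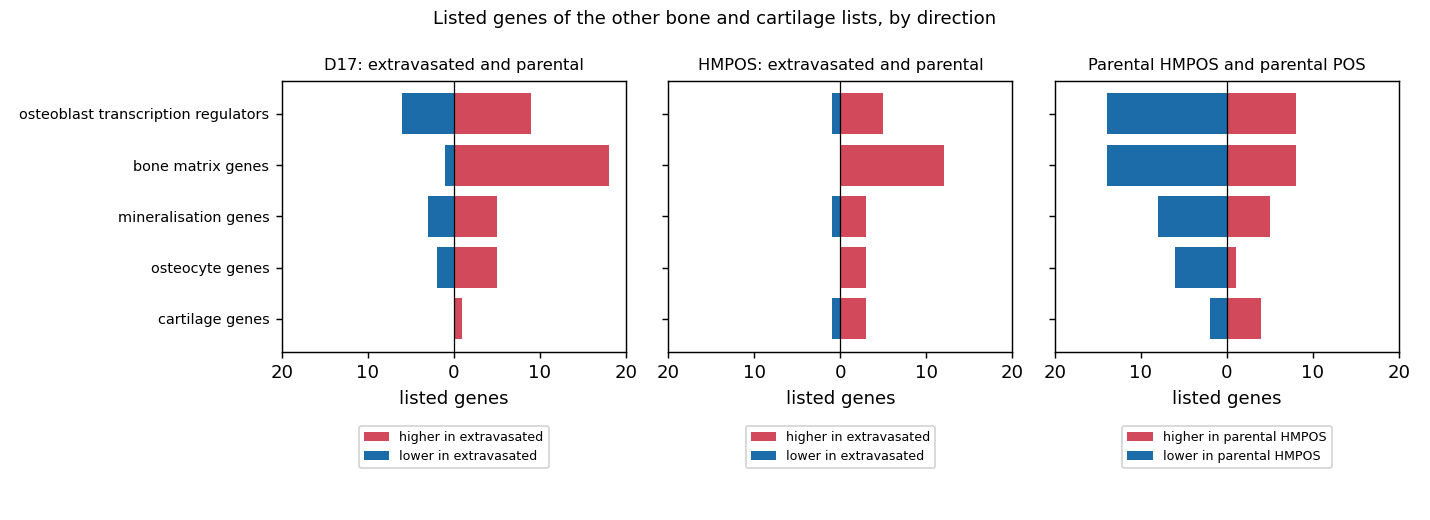
Numbers of listed genes (x axis) of 5 further bone and cartilage lists that were higher (red, to the right) or lower (blue, to the left) in the first-named group of each comparison, at any fold. Of the bone matrix genes in the tables, 18 of 19 lie on the extravasated side in D17, 12 of 12 do so in HMPOS, and 14 of 22 are lower in HMPOS than in POS, where 54.2%, 67% and 52.3% of all listed genes lie on these sides.

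IBSP, the marker given for these genes, was listed for HMPOS extravasation alone, so it does not place D17 or POS. SP7 at 54.5 and 41.7 FPKM in the parental HMPOS and POS lines, together with COL1A1 in both, is what the tables hold of an osteoblast identity there. For D17 the tables hold COL1A1, SPP1 and DLX5, but not SP7, ALPL, BGLAP or IBSP.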

How the data were processed

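Libraries were grouped by their sample titles, 3 in each of 5 groups. The submitters' processing notes name Trimmomatic 0.38, TopHat2, Cufflinks, Cuffdiff and CanFam3.1, whereas the article describes STAR, voom and limma. The authors deposited, for each of 3 comparisons, Cuffdiff columns with 1 FPKM value per group, pooled over its libraries and scaled within each comparison. All rows carry the authors' call at a q-value below 0.05. Their fold change, test statistic, p-value and q-value columns were otherwise not used. The depth per library is unknown, so no interval, SD or floor is given. Ratios were computed from the group values, and counts were made above 2-fold. The counting was tested on simulated ratios. The members and lists were chosen with earlier results of these data known. The rule named every listed member and, from each further list and table, the 3 genes with the largest log2 ratio (either sign) and at least 1 FPKM in the higher group. Not all of these are printed. Of the 39 names, 38 were in RefSeq's gene table, and no sequences were used here. Other fold thresholds, a filter, pseudocounts, centring and leaving out members with wide loci were tried. Python 3.11.15, numpy 2.4.6, pandas 2.3.3 and matplotlib 3.10.9 were used.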

Additional observations from a re-analysis of the deposited data

How the results depend on the processing

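At 1.5-fold, 6 members were higher in extravasated D17, 5 were higher and 2 lower in extravasated HMPOS, and 8 were higher and 14 lower in HMPOS against POS. At any fold there were 7 higher and 1 lower in D17, 5 and 2 in HMPOS, and 10 and 16 in HMPOS against POS. A pseudocount of 1 FPKM left 1 higher in D17 and 1 in HMPOS, and keeping members with 1 FPKM or more in either group left 1 in HMPOS. A pseudocount of 0.1 FPKM moved no count by more than 1.5 times. Centring used the median of all listed genes (log2 medians of 0.39 for D17, 0.58 for HMPOS and -0.31 for the parental lines). It left 2 higher and 0 lower in D17, and 1 higher and 2 lower in HMPOS. In HMPOS against POS, centring gave 6 higher and 4 lower, in place of 4 higher and 6 lower, so the more frequent direction above 2-fold depended on it. Centring also turned the log2 ratio of CBFB in HMPOS against POS to 0.0048, the 1 ratio of a member to change sign under any setting. That median is drawn from genes called different and is no neutral zero. Leaving out members whose locus holds another listed gene or spans over 10 times the RefSeq gene, an alternative chosen after seeing the data, left 1 higher in HMPOS (without CLEC11A) and 2 higher in HMPOS against POS (without DLX3, OMD and PHOSPHO1). No paired analysis was possible because each group has 1 pooled value, and leaving out single replicates could not be run for the same reason. The depth behind low values is unknown: PHEX and TNFSF11 were below 1 FPKM in every group that lists them, and IBSP in extravasated HMPOS and SOX6 in POS were also below 1 FPKM.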

Other observations

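Cartilage genes outside the members were few in the tables. Of 20, the D17 table held 1, which was higher in extravasated cells. The HMPOS extravasation table held 4, of which 3 were higher and 1 lower. The parental line table held 6, of which 4 were higher and 2 lower in HMPOS. Among all genes of these tables, the higher ones made up 54.2% (D17), 67% (HMPOS extravasation) and 47.7% (parental lines). The 3 of 4 is thus near its table's share, and counts this small cannot be weighed. ACAN, the large proteoglycan of cartilage, was at 9.34 FPKM in extravasated HMPOS cells against 3.00 FPKM in parental HMPOS, and at 25.9 FPKM in POS. HAPLN1, which links aggrecan to hyaluronan, was at 1.66 FPKM in extravasated HMPOS, 11.6 FPKM in parental HMPOS against 0.123 FPKM in POS. COL2A1 was at 1.52 FPKM in HMPOS against 0.321 FPKM in POS.

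Among 15 osteoclast markers, cathepsin K (CTSK), which osteoblast-lineage and fibroblast cells can also express, stood apart. It was at 439.7 FPKM in extravasated D17 cells against 85.6 FPKM in parental D17, at 48.3 and 13.9 FPKM in HMPOS, and at 528.7 FPKM in POS. The other osteoclast markers listed were TCIRG1 and CLCN7 in D17 and NFATC1 and CLCN7 in HMPOS against POS, all under 2-fold, and ACP5, CALCR and OSCAR were in no table. Of 10 genes each, adipocyte markers were listed for 2 genes in D17 and 1 in each other table, all below 1 FPKM in both groups. No muscle marker was listed, with 0 of 10 in each table. The endothelial markers were ERG in D17 at 10.4 FPKM in extravasated cells against 6.13 FPKM in parental cells, and KDR at 0.146 FPKM in HMPOS against 1.73 FPKM in POS. The 1 leukocyte marker listed was LCP1, at 33.2 FPKM in extravasated D17 cells against 12.0 FPKM in parental D17, while PTPRC was in no table. The part of these cell type markers in the differences of the bone genes was not tested.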
